A study of Homo sapiens with 5 samples.

Results

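The genes described here encode leukocyte adhesion molecules and homing receptors: ICAM1, ICAM2, ICAM3, ITGAL, ITGB2, ITGA4, ITGB1, CD44 and CXCR4. They were chosen by name, with earlier results of these data known. Each was read from its brightest probe set, by the mean of the 5 arrays, among those that carry a single gene symbol. All 9 were found, with 1 such probe set each, among 18417 genes measured. No filter on low values was applied in the main comparison, so all 9 entered it.

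The study profiled RNA from clones of Nalm6, a human cell line derived from acute lymphoblastic leukaemia of B-cell precursors, on whole-transcript arrays from Affymetrix. The control group held 2 clones that express a nonsense short hairpin RNA (shRNA), and the other group held 3 clones whose shRNA targets MondoA; each clone was hybridised to 1 array. All clones were grown in RPMI medium with 20% serum, glutamine, gentamycin and 200 mg/dl glucose. Every clone came from the same line, so p-values measure the spread between these clones and not between patients, and hairpin sequences are not given in the sources used here. MondoA, encoded by MLXIP, is a glucose-responsive transcription factor that binds DNA with its partner MLX.

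Leukocytes leave the blood and settle in marrow or lymphoid tissue through a sequence of adhesive contacts. Integrins are pairs of an alpha and a beta chain. The pair of ITGAL and ITGB2 (LFA-1) binds the intercellular adhesion molecules ICAM1, ICAM2 and ICAM3, and the pair of ITGA4 and ITGB1 (VLA-4) binds VCAM1 and fibronectin on marrow stroma. CD44 is a receptor for hyaluronan, and CXCR4 is the receptor for the stromal chemokine CXCL12, which retains B-cell precursors in the marrow.

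The labels were checked on the target first. MLXIP read 6.42 and 6.42 in controls 1 and 2, against 6.42, 6.47 and 6.29 in clones 1, 2 and 3 with MondoA shRNA, on the log2 scale of robust multi-array average (RMA) values. Both controls and MondoA shRNA clone 1 were tied exactly, as at least 3 arrays were in 54.0% of genes. The origin of such ties was not tested, which limits this check. The groups overlapped, and lower MLXIP RNA was not detected (difference -0.03, adjusted p = 0.959 by limma), so "MondoA shRNA" below means the arrays labelled so. The Pearson correlation between arrays ran from 0.993 to 0.998 across genes, which are not independent replicates. Of the B-precursor markers, 10 of 12 were measured and all 10 had a mean above the median gene level of 4.15. Their mean per array was 8.41 to 8.44 in control and 8.39 to 8.63 in MondoA shRNA arrays. Within that list CD22 and CD79A read higher and DNTT lower in MondoA shRNA arrays, by 1.27, 0.91 and -1.19, and their part in the results below was not tested. The markers of T and natural killer, myeloid, endothelial, stromal, and erythroid or megakaryocyte cells had means below 4.15 for 7 of 8, 7 of 7, 5 of 6, 5 of 6 and 4 of 4 measured genes. The mean of each of these lists lay between 2.90 and 3.30 in every array.

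The promoters of 4 genes whose groups did not overlap are shown first, because they set ICAM3 and ICAM1, from the same stretch of chromosome 19, beside ITGB1 and CXCR4, which differed in the other direction. Each runs from 250 bases before to 50 bases after the most upstream annotated start, from RefSeq on GRCh38.p14. They are ICAM3 (chr19:10339575-10339874, minus strand), ICAM1 (chr19:10270870-10271169, plus strand), ITGB1 (chr10:32958181-32958480, minus strand) and CXCR4 (chr2:136118100-136118399, minus strand). Capitals mark each GC box, GGGCGG on either strand, a motif bound by factors of the SP family.
ICAM3: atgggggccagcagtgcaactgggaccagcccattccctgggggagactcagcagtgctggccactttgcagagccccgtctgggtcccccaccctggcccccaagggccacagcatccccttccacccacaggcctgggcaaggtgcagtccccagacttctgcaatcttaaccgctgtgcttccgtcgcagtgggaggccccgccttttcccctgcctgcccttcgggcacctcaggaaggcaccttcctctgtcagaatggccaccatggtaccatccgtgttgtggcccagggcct
ICAM1: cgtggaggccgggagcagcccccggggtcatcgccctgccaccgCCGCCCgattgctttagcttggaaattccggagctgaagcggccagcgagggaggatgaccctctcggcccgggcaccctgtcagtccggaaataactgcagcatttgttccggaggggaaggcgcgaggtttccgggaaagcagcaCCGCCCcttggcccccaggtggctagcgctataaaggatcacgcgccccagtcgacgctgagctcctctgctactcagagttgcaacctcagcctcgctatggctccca
ITGB1: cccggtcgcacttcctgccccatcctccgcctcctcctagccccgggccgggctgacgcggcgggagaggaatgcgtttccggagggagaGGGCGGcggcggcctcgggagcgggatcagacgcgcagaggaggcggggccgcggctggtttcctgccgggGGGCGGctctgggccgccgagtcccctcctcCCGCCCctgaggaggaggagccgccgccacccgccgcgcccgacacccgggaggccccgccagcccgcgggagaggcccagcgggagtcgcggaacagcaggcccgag
CXCR4: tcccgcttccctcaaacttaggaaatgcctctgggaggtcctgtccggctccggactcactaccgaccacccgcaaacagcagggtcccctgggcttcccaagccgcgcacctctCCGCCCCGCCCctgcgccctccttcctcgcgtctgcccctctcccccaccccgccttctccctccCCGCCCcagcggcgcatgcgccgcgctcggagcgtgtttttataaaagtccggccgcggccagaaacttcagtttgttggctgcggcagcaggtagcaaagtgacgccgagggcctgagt

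GC boxes were found 2 times in the ICAM1 window, 3 times in that of ITGB1, 3 times in that of CXCR4 (with a pair of them overlapping) and 2 times in that of CD44, which is not shown. None was found in the most upstream window of ICAM3 or that of ITGA4. Over all annotated starts, 6 of 11 windows held a GC box, and ICAM3 was among the genes with such a window. The motif was present in 44.5% of 27305 promoter windows of this length, 1 per gene. The ICAM3 window held 7 CpG pairs at a G and C content of 65.0%, where the ICAM1 window held 24 at 64.7%. The E-box CACGTG, the core of the sites that MondoA and MLX bind as a pair, was in 7.41% of all windows. It was in 0 of the 11 windows, over all annotated starts, of the 6 genes for which a sequence was at hand. That says only that these letters are not in these windows. ICAM2, ITGAL and ITGB2 had no entry.

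Across the 9 genes, the arrays labelled MondoA shRNA read higher for ICAM3, ICAM1 and ITGB2 and lower for ITGB1 and CXCR4, and in these 5 genes the groups did not overlap. ICAM3 stood out by size, with 2.78-fold higher values, while the other 4 differed by 1.22-fold to 1.38-fold in either direction. For the remaining 4 genes, ICAM2, ITGAL, ITGA4 and CD44, the groups overlapped. None of the 9 passed the adjusted threshold of 0.05 in limma, as was so for all genes (0.00%, or 0 of 18417, with 687 at an unadjusted p under 0.05). At an unadjusted p under 0.05, 2 of the 9 stood on the higher side (ICAM3 and ITGB2) and 1 on the lower side (ITGB1), against 1.55% and 2.18% of all genes (3.73% in either direction). Groups without overlap were seen in 3 of the 9 with MondoA shRNA higher and in 2 with it lower, against 4.85% and 5.18% of all genes. In either direction, where 5 of the 9 are counted, it was 15.6% of the 9208 genes above the median level and 31.0% of the 4301 genes whose 5 values all differ. The median difference of the 9 was -0.02, and that of all genes was 0.00. As the 9 were chosen with earlier results of these data known, these counts are a description and not a test of the set.

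**Figure D1:**
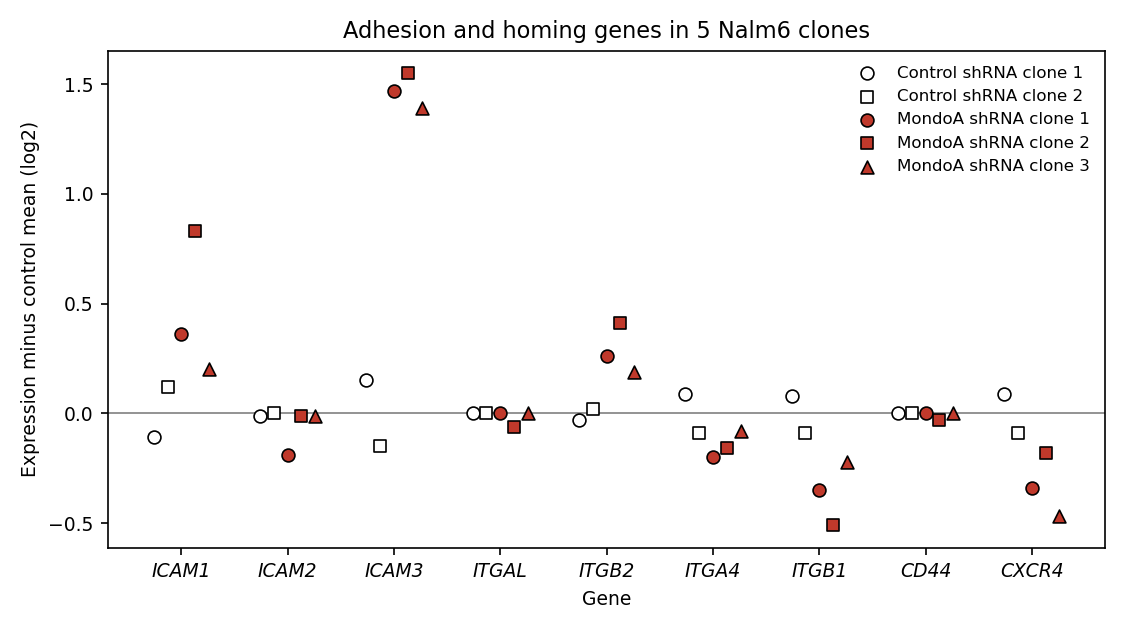
Expression of the 9 genes in each array, as the log2 value minus the mean of the 2 control arrays (vertical axis), by gene (horizontal axis). Open symbols are control shRNA clones and filled symbols MondoA shRNA clones; the filled symbols of ICAM3 lie 1.39 to 1.55 above the control mean, and those of ITGB1 and CXCR4 lie below both open symbols.

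The ICAM genes encode the immunoglobulin-like ligands of LFA-1. ICAM3, found on resting leukocytes (probe set 8033987, chromosome 19), read 3.92 and 3.62 in controls 1 and 2, against 5.24, 5.32 and 5.16 in clones 1, 2 and 3 with MondoA shRNA. The lowest MondoA shRNA value lay 1.24 above the highest control value, and the 3 clones lay close together. The group means were 3.77 ± 0.21 (SD, n = 2) and 5.24 ± 0.08 (SD, n = 3). The difference was 1.47 ± 0.12 (SE) (95% interval 1.13 to 1.81; limma adjusted p = 0.407, unadjusted p = 0.000442). Over the 16 alternatives the adjusted p ran from 0.00387 to 0.828 and the difference from 1.32 to 1.62. The difference was 1.62 without control array 1 and 1.32 without control array 2, each of which leaves a lone control. By absolute difference ICAM3 ranked 12 of the 18417 genes, and it was the only member among the 0.217% of genes that differed by at least 1 log2 unit. Both control values lay below the median gene level, and no detection calls were used, so if that level is background the difference is a lower bound. The RNA came from whole cultures, so more cells with ICAM3 RNA and more of it per cell cannot be told apart.

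ICAM1, the inducible ligand that inflammatory signals raise on many cells (probe set 8025601, chromosome 19), read 5.82 and 6.05 in the controls, against 6.29, 6.76 and 6.13 with MondoA shRNA. The groups did not overlap, yet the gap between them was only 0.09, and MondoA shRNA array 2 lay well above the other 2. The difference was 0.46 ± 0.24 (SE), and its 95% interval ran between -0.22 and 1.15 (adjusted p = 0.833 by limma). Without MondoA shRNA array 2 it was 0.28, and with array weights 0.29. ICAM2, the constitutive ligand on leukocytes, platelets and endothelium (probe set 8017547, chromosome 17), read 7.52 and 7.53 in the controls, against 7.34, 7.52 and 7.52 with MondoA shRNA. MondoA shRNA array 1 was the lowest and the other 4 lay close together, and the difference of -0.06 had an interval from -0.27 to 0.14.

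The ICAM genes of chromosome 19 lie close together, so the measured genes from ICAM1 to the third place beyond ICAM3 were read in chromosome order. ICAM4, an adhesion molecule of red cells, read 3.87 and 3.87 in the controls, against 4.08, 3.72 and 3.65 with MondoA shRNA, and ICAM5, an adhesion molecule of neurons, read 4.64 in 4 of the 5 arrays and 4.75 in MondoA shRNA array 1. RAVER1, which encodes an RNA-binding protein and lies next to ICAM3, read 6.44 in all 5 arrays. On the other side, the kinase gene TYK2 differed by -0.01, the chaperone partner gene CDC37 by -0.07 and the phosphodiesterase gene PDE4A by -0.01. The mitochondrial ferredoxin gene FDX2 differed by -0.04. The groups overlapped in all of the genes of this stretch other than ICAM1 and ICAM3. Exact ties held in all 5 arrays for RAVER1, in 4 for ICAM5 and in 3 for TYK2, so these readings do not show how far those genes vary. ICAM4, FDX2, CDC37 and PDE4A also held an exact tie, between 2 arrays each.

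**Figure D2:**
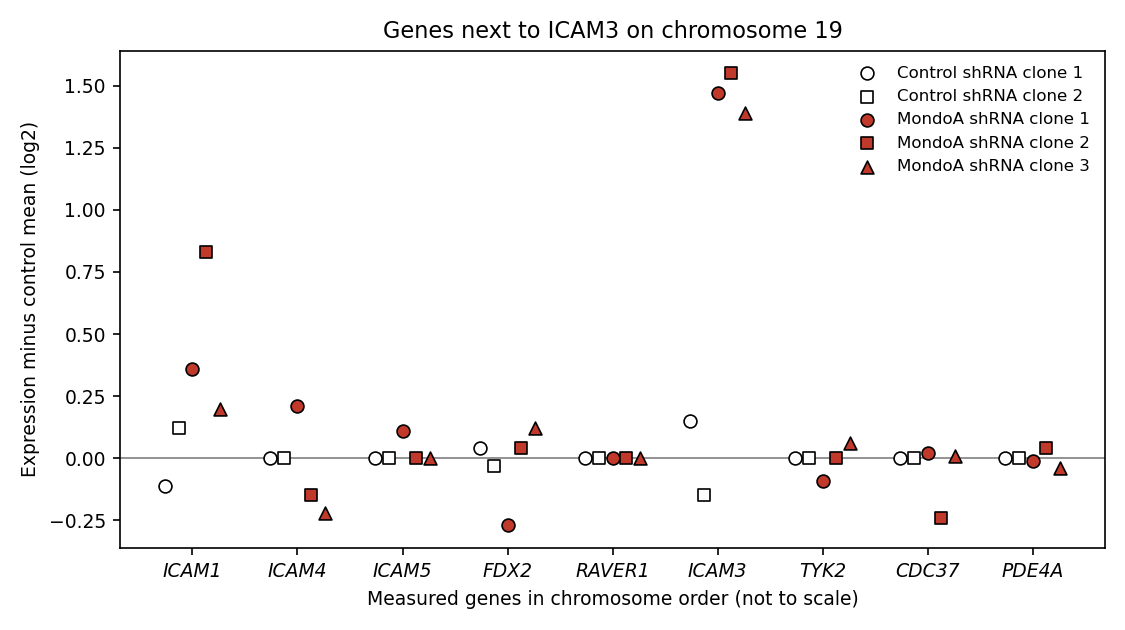
Log2 expression minus the control mean (vertical axis) for the measured genes from ICAM1 to PDE4A in chromosome order, not to scale (horizontal axis). Open symbols are control shRNA clones and filled symbols MondoA shRNA clones. ICAM3 stands 1.39 to 1.55 above the control mean, while RAVER1 and TYK2 on either side differ by 0.00 and -0.01, with exact ties in 5 and 3 arrays.

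The chains of LFA-1 gave unlike readings. ITGB2, the beta chain shared by the leukocyte integrins (probe set 8070826, chromosome 21), read 6.01 and 6.06 in the controls, against 6.30, 6.45 and 6.23 with MondoA shRNA. All 3 MondoA shRNA values lay above both controls, with a gap of 0.17. The difference was 0.29 ± 0.08 (SE), and its 95% interval ran between 0.06 and 0.52 (unadjusted p = 0.0258, adjusted p = 0.833 by limma). ITGAL, the alpha chain that is specific to LFA-1 (probe set 7994826, chromosome 16), read 2.64 in 4 arrays and 2.58 in MondoA shRNA array 2. Its values lay below the median gene level in all 5 arrays, and whether the gene was detected was not assessed.

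In VLA-4 both chains had a negative difference. ITGB1, the beta chain of many integrins that bind matrix (probe set 7932966, chromosome 10), read 6.80 and 6.63 in the controls, against 6.37, 6.21 and 6.50 with MondoA shRNA. The MondoA shRNA values all lay below the controls, by a gap of 0.13. The difference was -0.35 ± 0.12 (SE), and its 95% interval ran between -0.70 and -0.01 (unadjusted p = 0.0452, adjusted p = 0.833 by limma). ITGA4, the alpha chain (probe set 8046695, chromosome 2), read 7.90 and 7.72 in the controls, against 7.61, 7.65 and 7.73 with MondoA shRNA. Here MondoA shRNA array 3 lay above control array 2, so the groups overlapped. The difference was -0.14 ± 0.08 (SE), and its 95% interval ran between -0.37 and 0.08. The difference was -0.05 without control array 1 and -0.24 without control array 2.

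**Figure D3:**
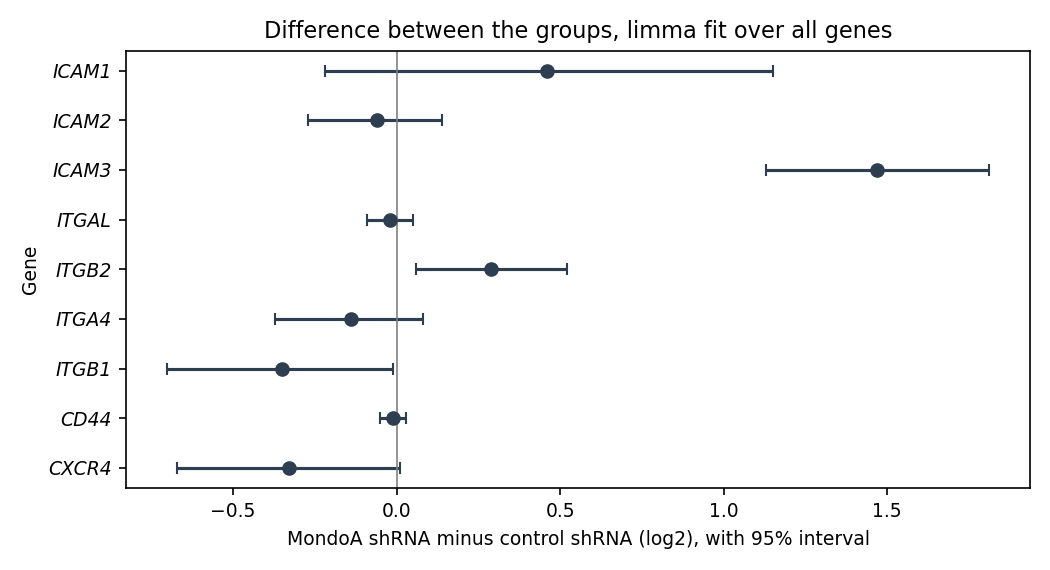
Difference of MondoA shRNA minus control shRNA arrays in log2 units (horizontal axis) for the 9 genes (vertical axis), with points at the limma estimate and bars for its 95% interval. The interval of ICAM3 runs from 1.13 to 1.81, those of ITGB2 and ITGB1 end short of 0, and the others include 0; no gene passed after adjustment over 18417 genes.

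Of the homing receptors, CXCR4 (probe set 8055465, chromosome 2) read 10.44 and 10.26 in the controls, against 10.01, 10.17 and 9.88 with MondoA shRNA. All MondoA shRNA values lay below the controls, with a gap of 0.09 between MondoA shRNA array 2 and control array 2. The difference was -0.33 ± 0.12 (SE), and its 95% interval ran between -0.67 and 0.01 (adjusted p = 0.833 by limma), or a level 1.25-fold lower in MondoA shRNA arrays. CD44 (probe set 7939341, chromosome 11) read 2.96 in 4 arrays and 2.93 in MondoA shRNA array 2. Like ITGAL, it lay below the median gene level in all 5 arrays.

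Partner genes were set against each other within each array to ask whether their differences were unequal. The log2 difference of ICAM3 and ICAM1 was 1.01 larger in MondoA shRNA than in control arrays, and that of ICAM3 and ICAM2 was 1.54 larger. For LFA-1, the log2 difference of ITGAL and ITGB2 lay at -0.26, -0.47 and -0.19 from the control mean in MondoA shRNA arrays 1, 2 and 3, a difference of differences of -0.31. As ITGAL was not shown to be above background, this value largely restates the difference of ITGB2. For VLA-4 it was 0.21 (ITGA4 against ITGB1). In all 4 pairs the arrays of the groups did not overlap, and each gave a two-sided p of 0.1 by exact permutation over 10 assignments (adjusted p = 0.1 over the 4 pairs), the smallest that 2 against 3 arrays allow. The exact test could therefore not reach 0.05, and unequal change was not tested in another way.

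Among the 5 genes without overlap, the clones of the MondoA shRNA group kept no single order. Array 2 lay farthest from the control mean in 4 (ICAM1, ICAM3, ITGB2 and ITGB1) and nearest in 1 (CXCR4), where it read -0.18 from the mean against -0.46 for array 3. Array 3 lay nearest in the same 4. For ICAM1 the distances from the control mean were 0.36, 0.83 and 0.20 in arrays 1, 2 and 3, and for ITGB1 they were -0.34, -0.51 and -0.22.

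Genes with the most similar profiles were sought for each member with a range of at least 0.5, by the root mean square distance between centred log2 values over the 5 arrays. For ICAM3 the nearest were the exonuclease gene PLD4 (distance 0.131), FCRLA, of the Fc receptor-like family (0.162), and the paxillin relative LPXN (0.188), with group differences of 1.52, 1.42 and 1.13. For ICAM1 they were the recombination gene SWI5 (0.0585), the leukocyte receptor gene LILRA2 (0.0671) and the NF-kappaB inhibitor gene NFKBIA (0.0758). NFKBIA read 7.07 and 7.25 in the controls, against 7.49, 8.15 and 7.32 with MondoA shRNA. It was highest in array 2 as ICAM1, SWI5 and LILRA2 were, which follows from choosing genes by likeness of profile. For ITGB1 they were the RNA methyltransferase gene METTL3 (0.0154), the glucosyltransferase gene UGGT1 (0.0278) and CDK5RAP3 (0.0353). For CXCR4 they were the myosin light chain gene MYL12B (0.0251), TOPORS (0.0293) and MFSD11 (0.0293). With 5 arrays and 18417 genes, close profiles are found for small differences more readily than for large ones, and the distances are given as a description.

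The other genes of the pathway were read from lists by role. CXCR4 signalling and desensitisation had 15 of 16 listed genes measured, with 5 at an unadjusted p under 0.05 (3 on the higher side, 2 on the lower), groups without overlap in 6, and a median difference of -0.01. Of all genes, 3.73% stood at that p, and of genes above the median level, where 12 of the 15 lie, 15.6% had groups without overlap. The kinase gene PIK3CG read 7.28 and 7.15 in the controls, against 7.65, 7.88 and 7.83 with MondoA shRNA, differing by 0.57 (adjusted p = 0.833 by limma). GRK6, which phosphorylates activated receptors, differed by 0.23, and the inhibitory G-protein subunit gene GNAI2 by 0.10. The partners ELMO1 and DOCK2, which together activate Rac in migrating lymphocytes, differed by -0.45 and -0.27. ELMO1 read 8.26 and 8.29 in the controls, against 7.83, 7.91 and 7.75 with MondoA shRNA (adjusted p = 0.589). The GTPase gene RAC2 had the largest difference of the list at 0.58, with 8.95 in MondoA shRNA array 2 against 8.24 and 8.23 in the other 2. None passed after adjustment.

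Of other homing receptors, 14 of 15 were measured and 12 had a mean below the median gene level. CD99, an adhesion molecule of leukocyte transmigration, read 6.03 and 6.25 in the controls, against 5.57, 5.50 and 5.53 with MondoA shRNA. Its difference was -0.61 ± 0.08 (SE), and its 95% interval ran between -0.83 and -0.38 (adjusted p = 0.6 by limma), and it was the only gene of the list at an unadjusted p under 0.05 (1 of 14, against 3.73% of all genes). The list's other members had overlapping groups. The machinery of integrin activation was measured in full (20 genes), with 10 differences above 0, 8 below and 2 within 0.005 of 0. The kinase gene PTK2B, a relative of focal adhesion kinase, read 6.73 and 6.66 in the controls, against 7.20, 7.03 and 6.97 with MondoA shRNA, differing by 0.37. It was the only one at an unadjusted p under 0.05 (1 of 20, near the 3.73% of all genes), and the list's median difference was 0.03. Groups without overlap were seen in 4 of the 20, against 15.6% of genes above the median level, where 17 of the 20 lie.

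Other leukocyte integrin subunits (14 of 15 measured, 12 below the median gene level) had a median difference of 0.01 and 0 members at an unadjusted p under 0.05 in limma. The widest difference was in ITGB7, the beta chain that pairs with ITGA4 in the gut-homing integrin, which read 3.85 and 3.43 in the controls, against 4.22, 4.18 and 5.00 with MondoA shRNA (difference 0.82, interval -0.20 to 1.84). Array 3 was high, and the control values lay below the median gene level. Among other ligands (10 of 14 measured) no gene had groups without overlap. The osteopontin gene SPP1 had the widest difference at 0.85, with 6.58 and 6.01 in MondoA shRNA arrays 2 and 3 and 5.11 in array 1, where control arrays read 5.12 and 4.98. Of the actin linkers of CD44 and ICAM tails (7 of 8 measured), the scaffold gene NHERF1 differed by 0.40. It was the only one whose groups did not overlap (1 of 7). None stood at an unadjusted p under 0.05, against 3.73% of all genes.

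**Figure D4:**
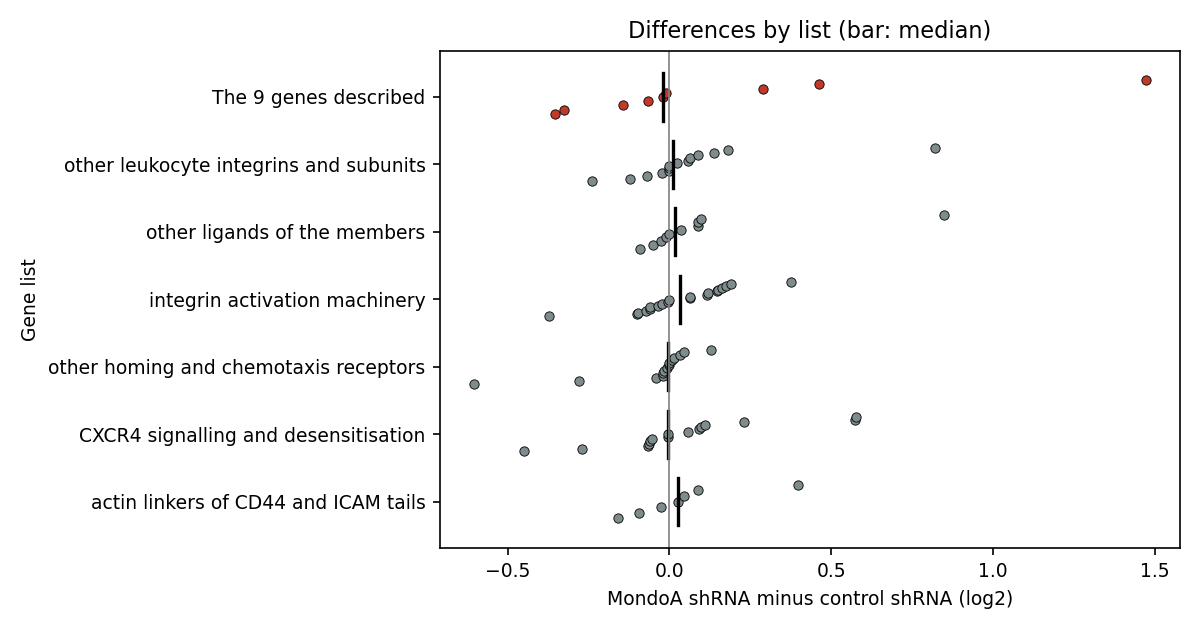
Difference of MondoA shRNA minus control shRNA arrays in log2 units (horizontal axis) for each measured gene of 7 lists (vertical axis), 1 point per gene, with a bar at the list's median. The medians lie between -0.02 and 0.03, and ICAM3 at 1.47 is the farthest point to the right.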

How the data were processed

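RNA of 5 Nalm6 clones (200 ng each, 1 array per clone) was labelled with biotin for Affymetrix whole-transcript arrays. The deposited log2 values were made by the authors with RMA in Affymetrix Expression Console 1.1, per the submitters' processing notes; the base of the logarithm, not stated in the labels, was taken as 2, which RMA gives. The number of arrays limits the precision. No detection calls or scan dates were used here.

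Of 33297 probe sets, 19460 had a single symbol in the platform annotation, 1754 several and 12083 none; the latter 2 kinds were left out. By Entrez number 19429 matched a RefSeq table of GRCh38.p14, used for current names and gene order. The brightest probe set per gene was kept (18417 genes). Of the genes named, CD99, ELMO1 and GNAI2 had 2 such probe sets, and the values of the dimmer are not given here. Groups were compared over all genes with limma 3.58.1 in R 4.3.3, two-sided, with Benjamini-Hochberg adjustment and a threshold of 0.05. The step was tested on simulated data without tied values, so that test did not cover the ties described below. Array weights used statmod 1.5.0.

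The genes and lists were chosen with earlier results of these data known. Named are all members, MLXIP, up to 3 measured neighbours of ICAM3 on either side, the 3 nearest profiles of members with a range of at least 0.5, and from each list the gene of largest difference and up to 5 at an unadjusted p under 0.05. CD22, CD79A and DNTT, ICAM4 as a neighbour beyond that range, and NFKBIA's values were singled out after values were seen. Exact ties between at least 3 arrays were found in 54.0% of genes. Among the members they were found in ICAM2, ITGAL and CD44, and among the other genes named in MLXIP, ICAM5, RAVER1 and TYK2. Replicate numbers are shared by the titles but link no clones, so they were not used as pairs. Alternatives left out each array, blocked on the replicate number, renormalised or centred the arrays, and changed the filter, the probe set choice or the moderation.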

Additional observations from a re-analysis of the deposited data

How the results depend on the processing

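No member's difference changed sign under the alternatives run. For the 5 genes without overlap leaving out an array could not turn the sign, and ITGAL and CD44 came to 0.00 without MondoA shRNA array 2. The alternatives that changed the gene filter, the probe set choice or the moderation kept the members' group means, so they could not turn a sign either. ITGAL and CD44 had no value among the brighter genes, nor had they and ICAM2 among genes without tied values, a filter that favours variable genes. With 1 array left out, the differences ran from 1.32 to 1.62 for ICAM3, and its adjusted p fell below 0.05 without control array 1 (difference 1.62, adjusted p = 0.0338) and over the genes without tied values (1.47, adjusted p = 0.00387). In both cases the set of genes or arrays tested is smaller, and a lone control takes its spread from the MondoA shRNA arrays. Over the genes without tied values the unadjusted p of ICAM3 in limma was smaller too (5.6e-06, against 0.000442), at the same difference. A smaller number of tests leaves an unadjusted p as it is, and how tied genes bear on limma's moderation was not tested. The count of members past the adjusted threshold was 0 in the main comparison, 0 to 1 with 1 array left out and 1 over genes without tied values. The count at an unadjusted p under 0.05 was 3 in the main comparison. It was 1 without MondoA shRNA array 1, and 3 without array 2 or array 3 of that group. Over the alternatives that kept all 5 arrays it ran from 2 to 4. The share of all genes at that level was counted for the main comparison only (3.73%). The counts under the alternatives therefore have no share to be read against. The count of members without overlap was 5 (1848 of all 18417 genes) and ran from 5 to 6, but the share of all genes moved too: it was 20.2% with quantile normalisation, and 32.9%, 31.2% and 13.7% without control array 1, control array 2 or MondoA shRNA array 3, where 6 members were counted. Over all genes, limma's count past the adjusted threshold of 0 became 2 with quantile normalisation, 2 with centring, 3 with no moderation and 60 over genes without tied values. Leaving out single arrays gave 0 to 752 (752 and 454 for control arrays 1 and 2). The cause of these shifts was not tested. With the replicate number as a block, ICAM3 differed by 1.51 (limma adjusted p = 0.828). With that block 4 members stood at an unadjusted p under 0.05, and the share of all genes there was not counted. Array 3 of the MondoA shRNA group has no partner in the block, so the differences equal those without it. Deviations from the group mean of arrays sharing a number correlated at -0.287 and -0.233. The deviations of 2 controls are exact opposites, so these values are not separate checks and cannot settle whether the numbers pair clones. As each member has a single probe set, averaging probe sets left their values as they were.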
